A study of Mus musculus with 4 samples.

Results

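The ligands and receptors of the epidermal growth factor (EGF) family were followed in mouse mammary epithelial cells in which the glucocorticoid receptor (GR) had been depleted. The family was taken as 10 genes: the receptors Egfr, Erbb2 and Erbb3 and the ligands Egf, Tgfa, Areg, Ereg, Btc, Nrg1 and Hbegf. Every array probe carrying 1 of these gene names was used, out of 28146 gene names on the array, which gave 27 of the 41174 probes that were not controls. In 24 of the 27, both arrays of 1 line or of both were well above background, which was needed for testing and held for 24439 probes in all. The study asked which genes the receptor regulates when no hormone is bound to it. It compared 2 stable lines of EPH-4, a non-malignant line from spontaneously immortalized mouse mammary epithelium. EV-50 carried the H1-2 empty vector and had normal GR, and shGR-19 carried an shRNA vector against endogenous GR. Both lines also carried the pBABE-puro selection marker, grew in serum-free DMEM/F-12 with 2 µg/mL puromycin, and received no glucocorticoid. Each line was 1 clone, so the spread between duplicates holds no difference between clones. Each line was hybridized to 2 arrays, from 300 ng of labelled RNA apiece. The labels do not say that duplicates came from separate cultures, so that every p-value measures only the spread between these arrays, which may be technical.

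The receptors of this family are tyrosine kinases at the cell surface. Binding of a ligand brings receptors together in pairs, and the phosphorylated pairs feed the RAS to ERK cascade and the PI3K to AKT arm. The ligands are made as membrane precursors and are released by proteases, and some of them bind only some receptors. EGF itself, TGF-alpha and amphiregulin bind the EGF receptor, neuregulin binds Erbb3, and betacellulin, epiregulin and heparin-binding EGF can bind the EGF receptor and Erbb4. Erbb2 has no known ligand and acts as a partner for the others. In the mammary gland amphiregulin acting on the EGF receptor is known for its part in duct growth at puberty.

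The largest differences in the family concerned 1 receptor and several ligands, and they were seen in the table of processed log2 values that the study deposited. There, Egfr was about 2-fold lower in shGR-19 and Areg about 2-fold higher, Nrg1 and Hbegf were higher by smaller amounts, and Erbb2 and Erbb3 differed little. The probes that read these transcripts are listed here by name, since each value below belongs to 1 of them. The 30 bases at the 5′ end of each 60-base probe are shown, as given in the scanner files, in lower case because no base in them was singled out.
Egfr A_52_P56471: caacactctggtctggaagtatgcagatgc
Egfr A_51_P392242: caagaggttaacactacggactagccattc
Egfr A_52_P106259: gttgcaagccactctaactgtagcaatgaa
Areg A_52_P482897: ctcagaggagtatgataatgaaccacaaat
Nrg1 A_52_P369769: tttctgtgtgaacggaggcgagtgcttcat
Nrg1 A_52_P369761: ggtgatcgttgccaaaactacgtaatggcc
In mm9, the build of the probe annotation, the Egfr probes lay on the plus strand at chr11:16783545-16783604, chr11:16787385-16787444 and chr11:16813815-16813874. The Areg probe lay on the plus strand at chr5:91570090-91570149. The Nrg1 probes lay on the minus strand at chr8:32959791-32959850 and chr8:32941681-32948181, and the second of these matches bases on both sides of a gap. The positions within the transcripts NM_007912 (Egfr, bases 2088 and 2401), NM_207655 (Egfr, base 5869), NM_009704 (Areg, base 426) and NM_178591 (Nrg1, bases 728 and 816) are those of the array's own annotation. Whether these bases are coding was not analysed here.

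Values came from 2 sources that did not agree, so that the difference of the brightest probe of each family member is given from both. The scanner files hold the brightness of each spot, taken here on the log2 scale relative to the 75th percentile of its array. The value table holds log2 values of the same 4 samples, with each probe centred on its median, so that the middle pair of its values is equal and opposite. Over the 14763 brighter probes, the differences between the 2 lines had an SD of 0.0971 on the scanner arrays labelled replicate 1 and 0.484 on those labelled replicate 2, against 0.482 and 0.485 in the table. Between the duplicates the SD was 0.569 (EV-50) and 0.692 (shGR-19) in the scanner files, against 0.109 and 0.0980 in the table. The scanner arrays labelled replicate 1 of the 2 lines were thus more alike than the duplicates of either line. The value table's columns of replicate 1 did not share this likeness. Whether these scanner files were exchanged, mixed or rescanned was not settled by the files, so that scanner means, differences and p-values are those of the arrays as labelled, and the pairs of arrays are given apart as well. The 2 sources were fitted separately with limma, with Benjamini-Hochberg adjustment over all 24439 probes, and a probe was called at an adjusted p below 0.01. All 4 arrays lay on 1 slide read in 1 scan. Between 23290 and 27358 of 43379 spots were well above background. The number of arrays limits the precision.

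Nr3c1, the gene of the depleted receptor, was read by 4 probes, and it was lower in shGR-19 in both sources. Its brightest probe read 1.73 and 1.85 on the EV-50 scanner arrays and 1.39 and -0.11 on the shGR-19 arrays. Only the shGR-19 array labelled replicate 2 stood far below the others, and the difference was -0.35 between the arrays labelled replicate 1 and -1.96 between those labelled replicate 2. In the value table the same probe read 0.98 and 0.95 in EV-50 and -0.95 and -0.98 in shGR-19, a difference of -1.94 (SE 0.0479, 2 columns per line, limma adjusted p = 0.00215). The 4 probes differed by -1.94 to -1.41 in the table, all called. Of 9 kept mammary epithelial markers of 10, Krt14, a basal keratin, was called and fell by 1.13 in the table (SE 0.0486, limma adjusted p = 0.00332). Its scanner difference was -0.58 (SE 0.575). Krt19, a luminal keratin, was not kept and differed by -2.76 in the table. The other 8 kept markers were not called. Of the 9 kept, 4 were higher and 5 lower in shGR-19 in the table, with a median difference of -0.004. The summed scanner level of the 10 markers, on the scale of the sums below, was 868 and 816 in EV-50 and 901 and 698 in shGR-19. Krt18 was the highest gene in each of these sums.

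Some fibroblast markers differed between the lines. Of 5 markers 1 was kept, Pdgfra, a growth factor receptor, which rose by 1.16 in the table (SE 0.0584, limma adjusted p = 0.00384), with a scanner difference of 0.95 (SE 0.964). Col1a1, a collagen chain, was well above background on 1 array of each line and so was not tested. It read -2.80 and -2.78 in EV-50 and 2.78 and 2.78 in shGR-19 in the table, a difference of 5.57, larger than that of any family probe. Its scanner values were -6.41 and -3.76 in EV-50 and -6.15 and 1.84 in shGR-19, so that the shGR-19 array labelled replicate 2 stood far above the others. Col3a1, also a collagen chain, was well above background on that array alone and differed by 1.65 in the table. Lum was likewise above background there alone but differed by -0.59, and Dcn was above background on none. The summed scanner level of the 5 markers, with the 75th percentile of an array as 1, was 0.0861 and 0.159 in EV-50 and 0.0669 and 3.80 in shGR-19. Col1a1 was the highest gene in the sum of 3.80, so that this sum does not stand for a rise of all 5.

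No kept marker was called among 3 myoepithelial, 1 endothelial, 3 immune cell and 2 adipocyte genes. Cdh5, Pecam1, Tie1, Ptprc, Itgam and Adipoq were well above background on none of the 4 arrays. The summed scanner level ran from 0.0275 to 0.0366 over the arrays for the endothelial list, from 0.367 to 0.526 for the immune list and from 0.195 to 0.311 for the adipocyte list. The part of other cells, fibroblasts included, in the results below was not tested.

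Of the 24 EGF family probes, 7 were called in the value table, 4 higher and 3 lower in shGR-19. On the whole array 11.6% of probes were called, 5.53% higher and 6.04% lower. At more than 2-fold with the same adjusted p there were 2 family probes, both Egfr and both lower, against 4.26% of all probes, 1.87% higher and 2.39% lower. These calls ended when any 1 of the 4 columns was left out, which leaves 1 line with a single column. They also ended when no probe was filtered out, where the smallest adjusted p of a family probe was 0.0147. In the scanner files none of the 24 was called, with a background of 0.0%, and none had an unadjusted limma p below 0.05 (204 did on the whole array). The values of the 2 lines did not overlap for 17 of the 24 probes in the table, where this held for 71.9% of all probes, and for 5 in the scanner files, where it held for 17.8%. The median difference of the 24 probes was 0.08 in the table and 0.16 in the scanner files, against 0.01 and 0.02 over all kept probes.

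**Figure D1:**
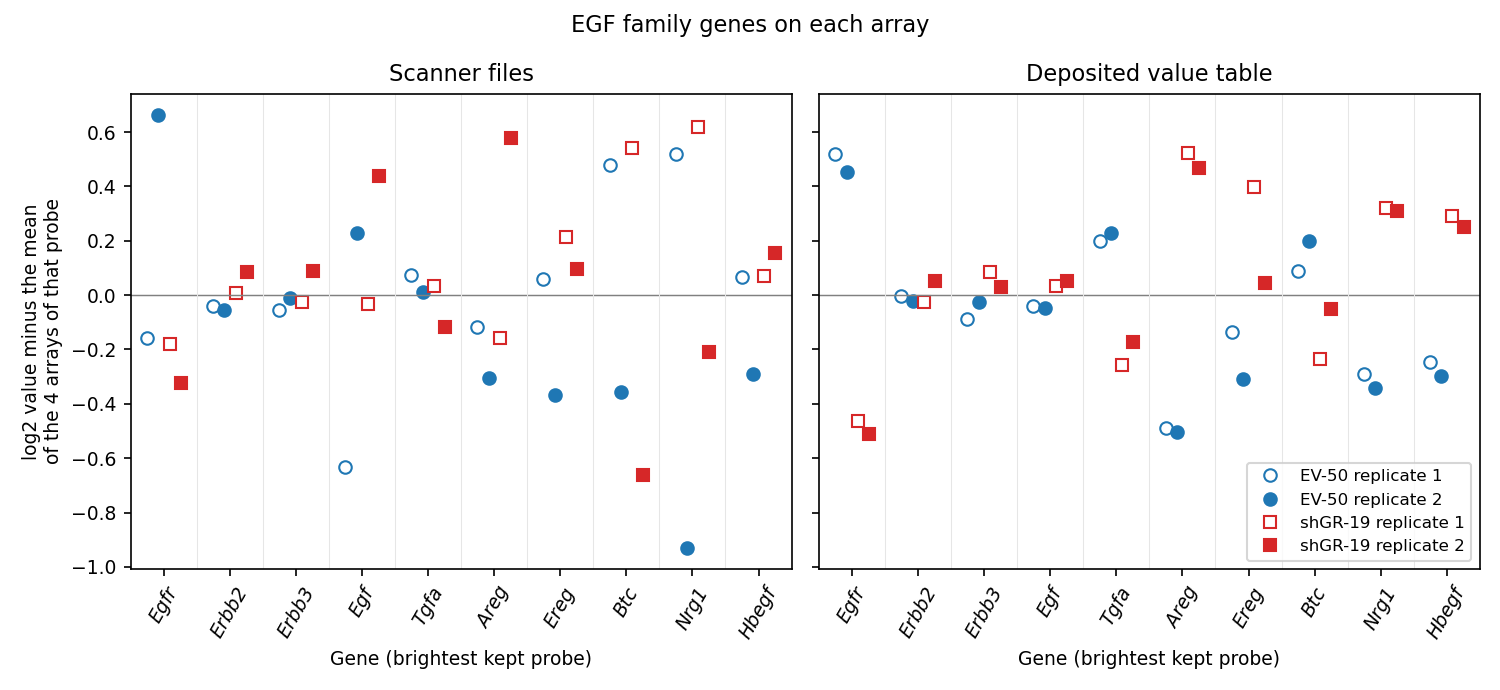
Log2 value of the brightest kept probe of each EGF family gene on each array, minus the mean of that probe over the 4 arrays, in the scanner files (left) and in the deposited value table (right). Circles are EV-50, squares are shGR-19, open symbols are replicate 1 and filled symbols replicate 2. In the table the lines do not overlap for 9 of the 10 genes, where this held for 71.7% of all genes. They lie furthest apart for Egfr, Areg, Nrg1 and Hbegf, with duplicates close together. On the scanner arrays the open circle and open square of most genes lie side by side.

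Egfr, the receptor for EGF and its closest relatives, fell in shGR-19 in the value table. The brightest of its probes (chr11:16813815) read 0.52 and 0.46 in EV-50 and -0.46 and -0.51 in shGR-19. Both EV-50 columns were above both shGR-19 columns by about the same amount. The difference was -0.97 (SE 0.0547, 1.96-fold, 2 columns per line, limma adjusted p = 0.00427). In the scanner files this probe read 0.63 and 1.45 in EV-50 and 0.61 and 0.47 in shGR-19. The high array was the EV-50 array labelled replicate 2, and the other 3 lay close together, so that the lines did not overlap but the difference of -0.51 (SE 0.347) had a limma adjusted p of 1.00. The pair of arrays labelled replicate 1 gave -0.02 and the replicate 2 pair gave -0.99.

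Of 6 Egfr probes, 5 were kept, and each of the 5 was lower in shGR-19 in the table, with no overlap of the lines. Called besides the brightest were the probe at chr11:16783545, with a difference of -1.17 (SE 0.0474, 2.25-fold, limma adjusted p = 0.00317), and that at chr11:16787385, with -1.06 (SE 0.0543, 2.08-fold, limma adjusted p = 0.00391). The probe at chr11:16783545 read 0.57 and 0.61 in EV-50 against -0.57 and -0.58 in shGR-19. The probe at chr11:16787385 read 0.50 and 0.57 against -0.50 and -0.54. For both of these probes the scanner values of the lines overlapped. The remaining kept probes did not pass, at -1.19 (SE 0.154, limma adjusted p = 0.0148) for chr11:16812181 and -0.74 (SE 0.128, limma adjusted p = 0.0257) for chr11:16817630. In both, 1 of the shGR-19 columns stood apart from the other, at -0.82 against -0.46 and at -0.28 against -0.59. The last of them was also the single kept Egfr probe that was higher in shGR-19 on the scanner arrays, by 0.31 (SE 0.507), where the EV-50 array labelled replicate 1 was lowest. Between the scanner arrays labelled replicate 2 the 5 probes differed by -0.63 to -1.07. The probe at chr11:16655638, which matches the sequence AK049452, was well above background on no array.

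Erbb2, the receptor without a ligand, was read by 2 probes and neither was called. The brighter read 0.01 and -0.01 in EV-50 and -0.01 and 0.06 in shGR-19 in the table, with overlapping lines. Its difference was 0.03 (SE 0.0539, limma adjusted p = 0.735), and it was -0.02 in the columns of replicate 1 and 0.07 in those of replicate 2. The other probe differed by 0.08 (SE 0.0883). The scanner values of the brighter probe ran from 2.45 to 2.59, the narrowest range in the family, with a difference of 0.09 (SE 0.205).

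Erbb3, the neuregulin receptor whose own kinase is weak, was likewise not called by any of its 4 kept probes of 5. The brightest read -0.09 and -0.03 in EV-50 and 0.08 and 0.03 in shGR-19 in the table, a difference of 0.11 (SE 0.0550, limma adjusted p = 0.194). Its scanner values were 1.42 and 1.46 in EV-50 and 1.44 and 1.56 in shGR-19, a difference of 0.06 (SE 0.207). The lines did not overlap in the table and did overlap on the arrays. The other kept probes differed by 0.10 (SE 0.0986), 0.36 (SE 0.246) and -0.14 (SE 0.256) in the table. The last pair lie on overlapping bases of NM_010153 and took opposite signs, and the probe at -0.14 was well above background on neither EV-50 array.

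Areg, which encodes amphiregulin, rose in shGR-19 in the value table. It read -0.48 and -0.49 in EV-50 and 0.53 and 0.48 in shGR-19, with the duplicates of each line nearly equal. The difference was 0.99 (SE 0.0502, 1.99-fold, limma adjusted p = 0.00388). On the scanner arrays it read -0.63 and -0.82 in EV-50 and -0.67 and 0.07 in shGR-19. Only the shGR-19 array labelled replicate 2 stood above the others, and the lines overlapped. The scanner difference was 0.42 (SE 0.328, limma adjusted p = 1.00), made up of -0.04 between the arrays labelled replicate 1 and 0.89 between those labelled replicate 2.

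Nrg1, which encodes neuregulin 1, was higher in shGR-19 at all 5 of its probes in the table, and 2 of them were called. The brightest read -0.30 and -0.35 in EV-50 and 0.31 and 0.30 in shGR-19, a difference of 0.63 (SE 0.0492, 1.55-fold, limma adjusted p = 0.00649). The probe across a gap at chr8:32941681 read -0.29 and -0.35 against 0.30 and 0.29, a difference of 0.62 (SE 0.0495, limma adjusted p = 0.00680). For both probes the columns of a line lay close together beside the distance between the lines. Of the rest, chr8:32932765 differed by 0.94 (SE 0.135, limma adjusted p = 0.0179), chr8:32925808 by 0.72 (SE 0.113, limma adjusted p = 0.0212) and chr8:32955582 by 0.30 (SE 0.564, limma adjusted p = 0.717). The probe at chr8:32955582 matches AK083943 and was well above background on neither EV-50 array. It alone among the 5 had overlapping lines in the table. In the scanner files the lines overlapped for all 5 probes, the called ones included. On the scanner arrays the brightest Nrg1 probe read 1.72 and 0.28 in EV-50 and 1.82 and 1.00 in shGR-19. Here both arrays labelled replicate 1 lay above both labelled replicate 2, the opposite grouping to that of the lines. The scanner difference was 0.41 (SE 0.60), with 0.10 between the arrays labelled replicate 1 and 0.72 between those labelled replicate 2.

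Hbegf, which encodes the heparin-binding ligand, was the fourth gene called. Its single probe read -0.25 and -0.30 in EV-50 and 0.29 and 0.25 in shGR-19 in the table. The lines did not overlap, and the difference was 0.54 (SE 0.0512, 1.46-fold, limma adjusted p = 0.00863). Its scanner values were 1.07 and 0.71 in EV-50 and 1.07 and 1.16 in shGR-19. The arrays labelled replicate 1 were equal to 2 decimals and the EV-50 array labelled replicate 2 was lowest, with a difference of 0.23 (SE 0.238) that was not called.

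Tgfa, which encodes TGF-alpha, was lower in shGR-19 at both of its probes in the table without passing the test. The brighter read 0.19 and 0.22 in EV-50 and -0.27 and -0.19 in shGR-19, a difference of -0.43 (SE 0.0568, limma adjusted p = 0.0151). The lines did not overlap. The other probe differed by -0.29 (SE 0.0822, limma adjusted p = 0.0728). In the scanner files the brighter probe ran only from -1.72 to -1.53, with a difference of -0.08 (SE 0.210).

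Egf, Btc and Ereg gave small or divided differences. Egf, the founding ligand, was not well above background on the EV-50 array labelled replicate 1. Its probe read -0.04 and -0.04 in EV-50 and 0.04 and 0.05 in shGR-19 in the table, a difference of 0.09 (SE 0.0458, limma adjusted p = 0.228), and the scanner difference was 0.40 (SE 0.390). Btc, which encodes betacellulin, read 0.07 and 0.18 in EV-50 and -0.25 and -0.07 in shGR-19, a difference of -0.29 (SE 0.0924, limma adjusted p = 0.0921), against -0.12 (SE 0.537) in the scanner files. Its second probe was well above background on no array. Ereg, which encodes epiregulin, was read by a pair of probes that did not lie together. That matching its transcript NM_007950, on the plus strand at chr5:91521659-91521720, differed by -0.13 (SE 0.117) in the table and 0.08 (SE 0.404) in the scanner files, with overlapping lines in both. That named Ereg through AK019057, on the minus strand at chr5:91480914-91480973, read -0.09 and -0.27 in EV-50 and 0.44 and 0.09 in shGR-19, a difference of 0.44 (SE 0.155, limma adjusted p = 0.108), with 0.31 (SE 0.253) in the scanner files. It lies 40.7 kb away on the other strand, so that its value may not be that of epiregulin.

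**Figure D2:**
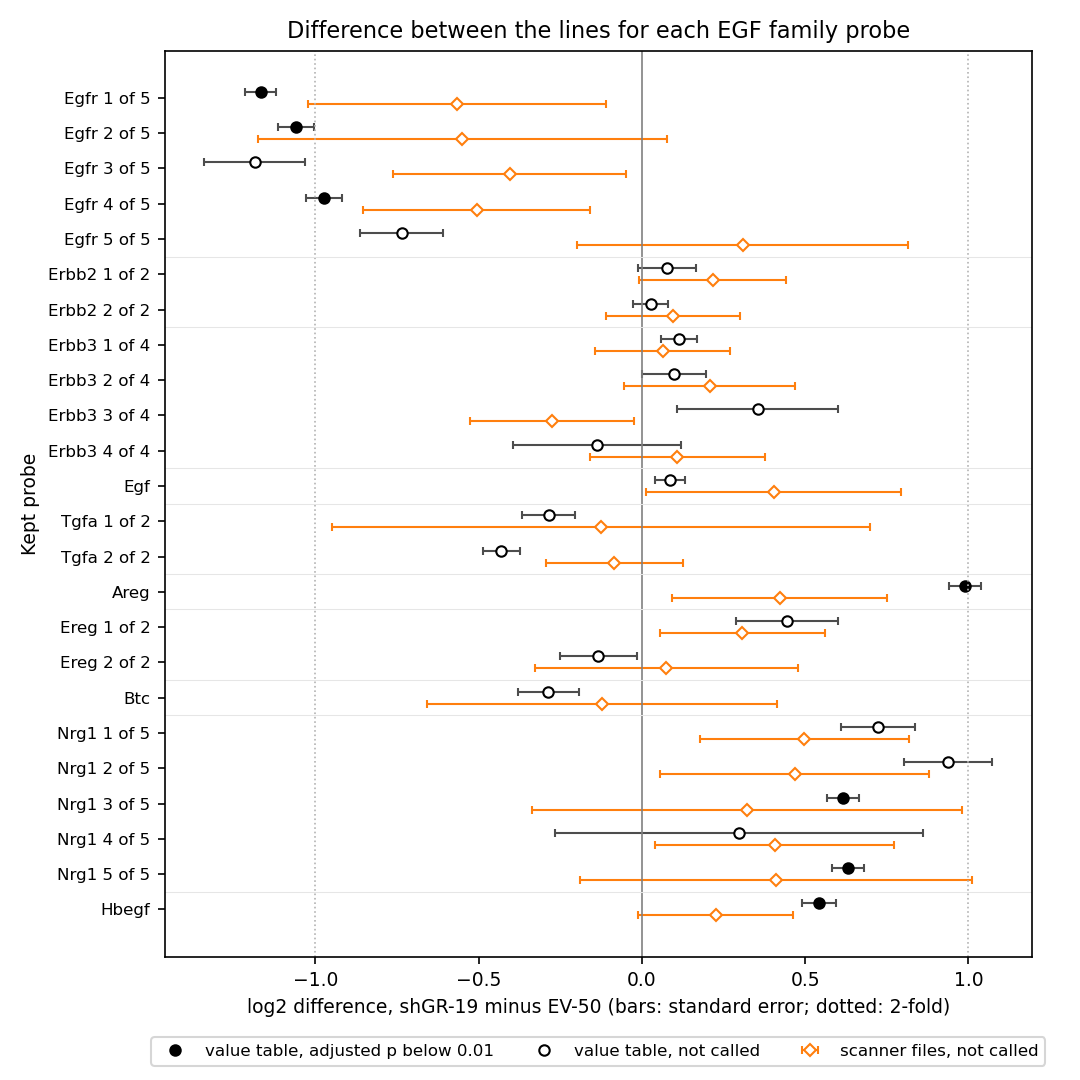
Log2 difference between the lines (shGR-19 minus EV-50) for each of the 24 kept probes, in genome order within a gene, with the standard error of the limma fit as bars. Circles give the value table, filled where the adjusted p was below 0.01, and diamonds the scanner files, in which none was called. Egfr lies near -1 in the table and Areg near 1, while the scanner differences of these genes are smaller and their bars longer.

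The scanner differences were divided unevenly between the pairs of arrays. Over the 24 kept probes the absolute difference between the lines had a median of 0.06 on the arrays labelled replicate 1 and 0.46 on those labelled replicate 2, against 0.44 in the table. For the 7 called probes the arrays labelled replicate 1 differed by -0.14 to 0.10. On the arrays labelled replicate 2 the same 7 differed by 0.45 to 1.07 in absolute size. Over all brighter probes, the difference in the table had a correlation across probes of 0.109 with that between the replicate 1 arrays and of 0.956 with that between the replicate 2 arrays, which share their RNA with the table by label. Genes are not independent replicates, and these are descriptions.

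**Figure D3:**
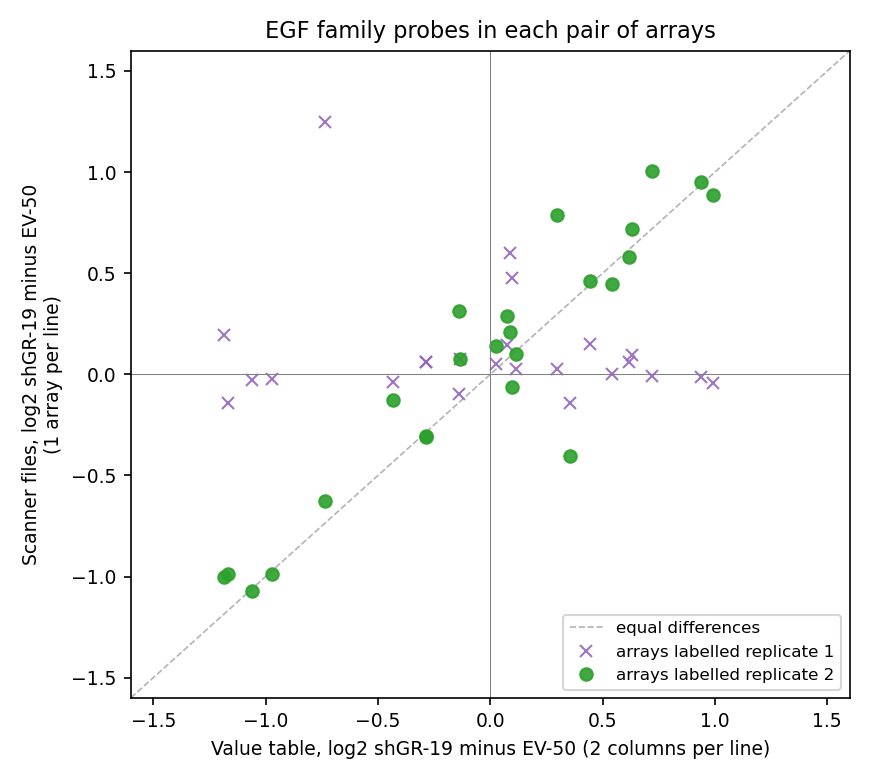
Log2 difference between the lines for the 24 kept EGF family probes on each pair of scanner arrays (vertical axis, 1 array per line) against the difference in the value table (horizontal axis, 2 columns per line). Most points of the replicate 2 arrays lie near the dashed line of equal differences, apart from a few dim probes such as those of Erbb3 and Ereg that take the opposite sign, and most points of the replicate 1 arrays lie near 0, the highest at 1.25 being the Egfr probe at chr11:16817630.

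Several ligand genes are neighbours on chromosome 5, and their probes were set beside each other with that of Epgn, which encodes epigen, a further ligand of the EGF receptor. The probes of Epgn, Ereg, Areg and Btc lay within 324 kb. Epgn fell, reading 0.92 and 0.77 in EV-50 and -0.77 and -0.85 in shGR-19, a difference of -1.65 (SE 0.0767, 3.15-fold, limma adjusted p = 0.00353). Areg, whose probe starts 48.4 kb beyond the plus-strand Ereg probe, rose by 0.99, while the differences of that Ereg probe and of Btc were -0.13 and -0.29. Neighbouring ligand genes of this cluster thus took opposite directions in the table. On the scanner arrays Epgn read -2.08 and -2.73 in EV-50 and -1.87 and -4.10 in shGR-19, a difference of -0.58 (SE 0.814) that was 0.21 between the arrays labelled replicate 1 and -1.37 between those labelled replicate 2. Of the other EGF family genes, Nrg4 differed by -0.24 (SE 0.205), Erbb4 and Nrg3 were not kept, and Nrg2 was not found by name.

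The start of Egfr and Areg, the members with the largest called change in each direction, is shown for its sequence. Entries were matched for 6 of the 10 members in a RefSeq table of mouse promoters (GRCm38.p6). The 250 bases before the annotated start of each gene are given 5′ to 3′ on the strand of the gene. Capitals mark the motifs searched for on either strand. The core bound by ETS factors such as GABP was searched as CCGGAAG. The cyclic AMP response element was searched as TGACGTCA. The box bound by factors of the Sp family was searched as GGGCGG, named the GC box here. The box near many transcription starts, the TATA box, was searched as TATAAA. The glucocorticoid half-site was searched as AGAACA, and the full glucocorticoid response element as this half-site followed by any 3 bases and by the reverse complement of the half-site, so that every full element also counts as a half-site.
Egfr, chr11:16751953-16752202, plus strand: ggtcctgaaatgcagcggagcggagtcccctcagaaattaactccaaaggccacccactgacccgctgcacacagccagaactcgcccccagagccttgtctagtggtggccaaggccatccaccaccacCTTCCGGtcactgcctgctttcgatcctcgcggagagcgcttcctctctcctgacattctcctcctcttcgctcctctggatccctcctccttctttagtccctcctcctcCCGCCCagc
Areg, chr5:91139349-91139598, plus strand: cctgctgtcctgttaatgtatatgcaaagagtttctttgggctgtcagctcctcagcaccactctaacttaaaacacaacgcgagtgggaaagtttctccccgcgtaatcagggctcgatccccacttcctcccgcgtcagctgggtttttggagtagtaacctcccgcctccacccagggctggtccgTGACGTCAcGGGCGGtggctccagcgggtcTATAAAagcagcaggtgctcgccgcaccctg
The Egfr stretch held 1 match to the ETS core, 120 to 114 bases before the start, and 1 GC box at 9 to 4 bases, both on the opposite strand. The Areg stretch held 1 cyclic AMP response element at 61 to 54 bases, 1 GC box at 52 to 47 and 1 TATAAA at 31 to 26. Neither held AGAACA or the full glucocorticoid response element. Among 32851 promoters of the same length, 6.91% held the ETS core, 1.55% the cyclic AMP response element, 32.7% the GC box, 12.4% TATAAA, 16.1% AGAACA and 0.00913% the full element. These matches describe letters and not binding.

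Beyond the family, 63 genes that act before or after the receptors were listed by role. Of these, 61 were found by name and 55 had a kept probe, and 10 of the 55 were called in the value table, 8 higher and 2 lower in shGR-19. Over the 16757 genes on the array with a kept probe, 12.6% were called, 6.11% higher and 6.51% lower. At more than 2-fold there were 5 of the 55, 3 higher and 2 lower, against 4.86% of genes, 2.16% higher and 2.7% lower. The lines did not overlap for 41 of the 55 in the table and for 13 in the scanner files, where this held for 71.7% and 18.4% of all genes. The median difference of the 55 was 0.03 in the table, and it was 0.02 over all kept genes. As for the family, the calls among the 55 ended when any 1 of the 4 columns was left out, and also when no probe was filtered out. In the scanner files none of the 55 was called and none had an unadjusted p below 0.05. The 10 genes called in the table had scanner differences of the same sign, from 0.26 (Src) to 0.66 (Fos) for the 8 that rose and -0.45 (Braf) and -0.58 (Epgn) for those that fell. Both sources describe the same samples, so this likeness of sign is no separate support, and its share over all called genes is not given. Between the arrays labelled replicate 1, Src (-0.07) and Epgn (0.21) took the opposite sign and the rest kept theirs. The scanner fit of Spry1 was without the EV-50 array labelled replicate 2, whose spot was an outlier. Values of single pathway genes below are those of the table unless the scanner files are named.

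Transcripts known to be induced by ERK signalling had the highest median of the lists, 0.68 over 8 kept genes of 9, and 3 were called, all higher. Fos, a subunit of AP-1, rose by 1.21 (SE 0.0706, 2.31-fold, limma adjusted p = 0.00457) from -0.56 and -0.69 in EV-50 to 0.61 and 0.56 in shGR-19. Phlda1 and Etv4, the latter an ETS factor, rose by 0.83 and 0.54, and are named after their values were seen. Etv5, the relative of Etv4, differed by 1.01 (SE 0.113, limma adjusted p = 0.0113), just short of the call. Of the remaining 4, Ier3 was lower and the others higher in shGR-19, none called. In the scanner files Fos read -3.63 and -3.33 in EV-50 and -3.33 and -2.32 in shGR-19, and its lines did not overlap.

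Negative regulators of the receptors and of ERK had a median of 0.34 over 12 kept genes of 15, and 4 were called, all higher. Dusp6, the phosphatase of ERK, read -0.58 and -0.63 in EV-50 and 0.60 and 0.58 in shGR-19 and rose by 1.20 (SE 0.0496, 2.29-fold, limma adjusted p = 0.00326). Spry2, an inhibitor of receptor tyrosine kinase signalling, read -0.53 and -0.76 against 0.63 and 0.53 and rose by 1.23 (SE 0.105, 2.34-fold, limma adjusted p = 0.00752). A second Spry2 probe differed by 0.19 (SE 0.0533, limma adjusted p = 0.0687), in the same direction but not called. Spry1 rose by 0.75 and Rnf41, a ubiquitin ligase that acts on Erbb3, by 0.71, with all 4 Rnf41 probes called between 0.55 and 0.87; these genes too are named after their values were seen. On the scanner arrays Dusp6 read 1.68 and 1.40 in EV-50 and 1.86 and 2.48 in shGR-19, a difference of 0.63 (SE 0.305) with no overlap of the lines.

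Within the RAS to ERK cascade the median was -0.09 over 10 genes and 1 was called. Braf, a kinase between RAS and ERK, fell by 1.09 at its brightest probe (SE 0.0762, 2.13-fold, limma adjusted p = 0.00563), from 0.49 and 0.56 in EV-50 to -0.64 and -0.49 in shGR-19. Its 6 kept probes disagreed. Those nearest the 3′ end by the annotation, at chr6:39553758, chr6:39561714 and chr6:39564145, differed by -1.09, -0.76 and -0.56, with the first and second of them called. Those at chr6:39594377, chr6:39598452 and chr6:39625840 differed by -0.03 (SE 0.137), 0.03 (SE 0.0916) and 0.02 (SE 0.614), and none was called. The probe at chr6:39598452 was well above background on neither EV-50 array. That at chr6:39625840 read 0.84 and -0.79 in shGR-19, so that its difference is hardly determined. Lower signal was thus seen at the probes nearest the 3′ end, and the change of Braf as a whole is uncertain.

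The remaining lists held few calls. Among 8 kept adaptors and exchange factors (median -0.07), Src, a kinase that couples to the receptors, rose by 0.62 (SE 0.0554, limma adjusted p = 0.00803), and Grb7 and Gab1 differed by -0.34 and -0.23 and Sos2 by 0.38 without being called. None of 7 genes of ligand shedding was called (limma, median 0.04), with 2 at an unadjusted p below 0.01 but an adjusted p above it: Adam9, a protease of the sheddase family, at 0.45 (SE 0.0492, limma adjusted p = 0.0111) and Timp3, an inhibitor of such proteases, at -0.42 (SE 0.0457, limma adjusted p = 0.0110). Adam10 and Rhbdf2 in this list differed by 0.23 and -0.22. None of 8 genes of the PI3K to AKT arm was called (limma, median -0.06). There Pik3cb differed by -0.56 (SE 0.0598, limma adjusted p = 0.0104), Pik3r2 by -0.15, Pik3ca by 0.11 and Akt1 by 0.35.

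**Figure D4:**
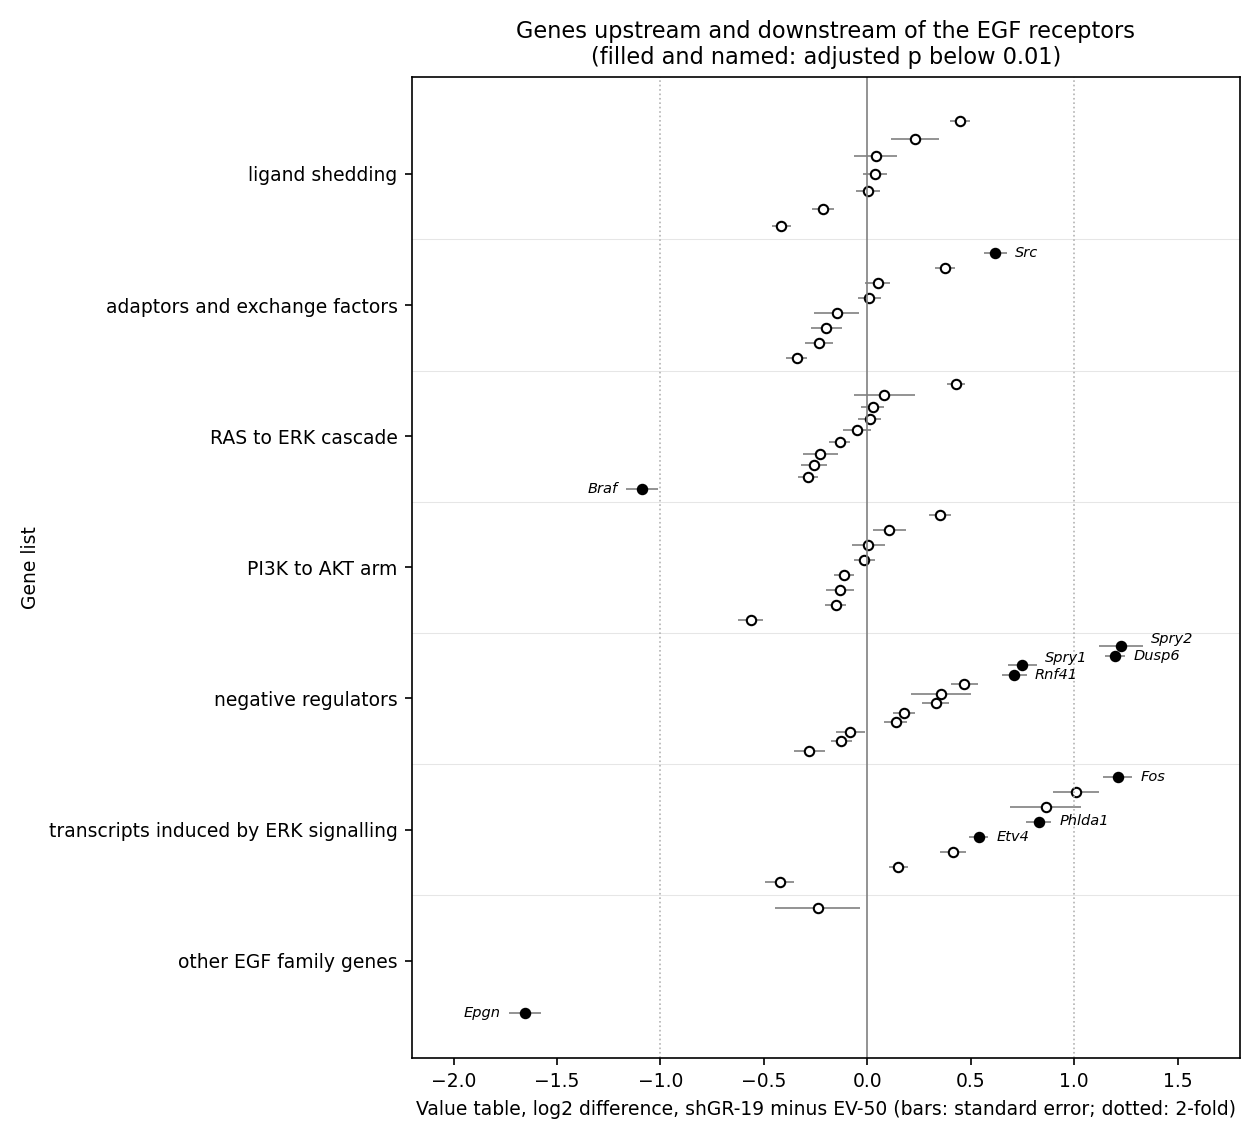
Value table difference (log2, shGR-19 minus EV-50) for the brightest kept probe of each of 55 genes, by list, with the standard error of the limma fit as bars. Filled and named points had an adjusted p below 0.01. Of the 8 called genes above 0, 7 are negative regulators or transcripts induced by ERK signalling. These lists hold 12 and 8 of the 55 genes, and all lists were chosen with earlier results of these data known. Braf and Epgn stand alone below -1.

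Among 16747 genes outside the family, those with the pattern most like that of the brightest Egfr probe over the 4 columns of the table were Madd, Fas and Cdc42ep3, at Euclidean distances of 0.0181, 0.0216 and 0.0230 against a median of 1.04. They differed between the lines by -0.96, -0.96 and -0.95. Over the 4 scanner arrays their distances from Egfr were 0.950, 0.846 and 0.818, near the median of 0.930. Their scanner differences between the lines were -0.52, -0.51 and -0.62, beside -0.51 for Egfr. The genes were picked by their table values and both sources describe the same samples, so these differences are no separate likeness.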

How the data were processed

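RNA from 2 EV-50 and 2 shGR-19 samples was hybridized to 1-colour Agilent Whole Mouse Genome arrays. The authors deposited the intensity of each spot as background-subtracted by Agilent Feature Extraction 10.5.1.1 and not scaled between arrays, as well as log2 values of the same samples from GeneSpring, each probe centred on its median over them. Control spots and outlier spots (74 to 139 per array) were left out, the log2 processed signal was scaled by subtracting that of the array's 75th percentile, and spots of a probe were averaged, a probe being above background where at least 0.5 of its spots were. Of the family's 27 probes, 5 had 10 spots. The value table was joined by probe name (41174 probes matched).

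Both sources were fitted with limma 3.58.1 in R 4.3.3 (lmFit, eBayes, no covariate) on the same kept probes. An exact permutation test of 2 against 2 arrays was not used, as it cannot pass the threshold. The methods' 2-fold and p limits were used with an adjustment that they do not name. A gene was represented by its brightest kept probe. Genes named were all members, Nr3c1, pathway genes past 2-fold and adjusted p below 0.01, otherwise the 2 largest rises and 2 largest falls of each list, and the 3 genes nearest Egfr; exceptions are marked. The members and lists were chosen with earlier results of these data known. The steps were tested on simulated data. Alternatives were normexp background (offset 50), quantile normalization, scaling on detected probes, column centring, other filters, a trended robust prior (statmod 1.5.0), leaving out each array, the replicate number as a block, and an adjusted p below 0.05. Arrays of replicate 1 alone and of replicate 2 alone were added after the data were seen.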

Additional observations from a re-analysis of the deposited data

How the results depend on the processing

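In the scanner files, all counts of called family probes and pathway genes (0) stayed at 0 under every alternative run on those files, the replicate block and each array left out included; with the value table in their place they were 7 and 2 (more than 2-fold) for probes and 10 and 5 for genes. In the value table, the family count of 7 became 0 with all probes kept, 11 where a probe had to be well above background on all 4 arrays, 11 with the trended robust prior and 12 at an adjusted p below 0.05, and the pathway count of 10 became 0, 17, 27 and 24 under the same settings. With all probes kept the more than 2-fold counts (2 and 5) also became 0. With 1 column left out all 4 counts were 0 to 0. At an unadjusted limma p below 0.05, keeping all probes gave 15 of 27 family probes and 31 of 61 pathway genes. The share of all probes at that limit is not given here, so these counts say nothing particular to the family.

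The replicate number as a block took all 4 value table counts to 0. The unadjusted limma p was below 0.05 in 16 probes and 30 genes, and the share of all probes is again not given. With only 2 pairs, whether the replicate number pairs the samples was not settled. The correlation of same-numbered deviations was 0.574 in the scanner files, where the replicate 1 arrays of the 2 lines were alike. In the table it was 0.0559.

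Centring the table's columns raised the median of all probes by 0.117, and every difference with it, and turned no named gene. Signs did turn for scanner differences of Egf (-0.028 to 0.84 with 1 array left out), Areg (-0.042 on replicate 1 alone), Btc (-0.72 to 0.48 with 1 array left out, 0.063 on replicate 1 alone), Nrg1 (-0.31 to 1.13 with 1 array left out) and Epgn (-1.70 to 0.54 with 1 array left out, 0.21 on replicate 1 alone), and for Erbb2 in the table (-0.011 to 0.065 with 1 column left out, -0.020 on replicate 1 alone). These values are those of the brightest probe of each gene. The other called family probes also turned sign in the scanner files with 1 array left out. They were the Egfr probes at chr11:16783545 (-1.15 to 0.016) and chr11:16787385 (-1.37 to 0.27) and the Nrg1 probe at chr8:32941681 (-0.45 to 1.09). Dimmer family probes that were not called are not listed here. Among further called pathway genes, scanner signs turned with 1 array left out for Src (-0.11 to 0.64), Etv4 (-0.070 to 0.68) and Phlda1 (-0.0041 to 0.78). The sign of Src also turned on replicate 1 alone (-0.071). Pathway genes that were not called are not listed here. The causes were not tested.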
